A study of Mus musculus with 4 samples.

Results

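The enzymes that turn squalene into cholesterol were followed in the liver of obese mice. The 9 genes were Sqle, Lss, Cyp51, Tm7sf2, Nsdhl, Hsd17b7, Ebp, Sc5d and Dhcr7, taken by symbol from 24346 gene symbols listed for each library, and all of them were found. RNA sequencing covered 4 groups of male ob/ob mice, which carry no functional leptin and become obese, so that no lean liver is included. All 4 groups ate 1% cholesterol from 6 weeks of age for 4 weeks. CD was regular chow with corn oil, WD was a high fat diet with cocoa butter and more sucrose, and CD+7KC and WD+7KC held 0.01% 7-ketocholesterol (7KC), an oxidized cholesterol, in addition. Each group had 1 library, whether from 1 mouse or a pool is not given in the sources used here, and no difference below has a replicate check or a p-value.

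Squalene is an open-chain intermediate of cholesterol synthesis. Squalene epoxidase oxidizes it, lanosterol synthase closes it into the sterol rings, and the later enzymes remove methyl groups and move or reduce double bonds, mostly in the endoplasmic reticulum. The transcription factor SREBP2 is known to raise transcription of this pathway when membrane cholesterol is low, and dietary cholesterol and many oxysterols hold SREBP2 in the endoplasmic reticulum through INSIG proteins. In the liver the pathway is therefore known to be quiet when much cholesterol is eaten.

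SREBP2 is known to act together with NF-Y, which binds the CCAAT box, and with Sp1, which binds GC boxes. Promoter windows from RefSeq (GRCm38.p6), reaching from 250 bases before to 50 bases after a transcript start, matched 8 of the 9 genes, all but Sqle. An NF-Y box, CCAAT or its reverse complement ATTGG, stood in a window of 8 of these 8 genes, against 41.1% of 27025 genes with a window. It lay within 120 bases before the start in 8 of 8, against 24.2% of genes. The stretches are shown because each of the 8 genes has a window with this box near a transcript start. These genes have 10 windows, of which 8 held the box, and for Dhcr7 only the window used here held it. The printed boxes of Cyp51, Tm7sf2 and Dhcr7 lie inside annotated exons, so other transcripts start upstream of them or overlap them. Each is written on the transcript's strand with the box in capitals.
Lss: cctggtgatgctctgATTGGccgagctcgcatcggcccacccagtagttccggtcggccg
Cyp51: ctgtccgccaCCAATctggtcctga
Tm7sf2: cccagcgctgATTGGctactgtgct
Nsdhl: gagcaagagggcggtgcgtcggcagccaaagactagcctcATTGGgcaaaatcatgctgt
Hsd17b7: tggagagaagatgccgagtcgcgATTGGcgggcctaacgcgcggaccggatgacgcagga
Ebp: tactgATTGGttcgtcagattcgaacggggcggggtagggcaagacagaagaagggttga
Sc5d: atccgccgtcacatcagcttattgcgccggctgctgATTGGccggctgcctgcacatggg
Dhcr7: tccacttccgATTGGtcgtctgtga

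On GRCm38, the Lss stretch is chr10:76531528-76531587 on the plus strand, Nsdhl chrX:72918461-72918520 plus and Dhcr7 chr7:143830155-143830179 plus. On the minus strand lie Cyp51 chr5:4104712-4104736, Tm7sf2 chr19:6067883-6067907, Hsd17b7 chr1:169969242-169969301, Ebp chrX:8193513-8193572 and Sc5d chr9:42264301-42264360. Most printed boxes were written ATTGG on the transcript's strand, and that of Cyp51 was CCAAT. The printed box began between 20 bases before the start in Nsdhl and 73 bases before it in Hsd17b7. Some windows held further boxes that are not printed, such as ATTGG 12 bases before the start in Hsd17b7 and CCAAT 85 bases before it in Dhcr7.

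A GC box (GGGCGG, either strand) was also found in 8 of 8 genes, against 38.2% of genes, and both boxes shared a window in 8 of 8, against 14.5%. The sterol regulatory element of SREBP2, searched as TCACNCCAC on both strands, was in none of the 8 genes, against 1.44% of genes. Its core CACNCCAC, which lies inside those letters, was also in none, against 7.12%. These letters are only absent from these windows, and a match is not a measured binding site. The map of the windows shows how near the boxes lie to the start.

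**Figure D1:**
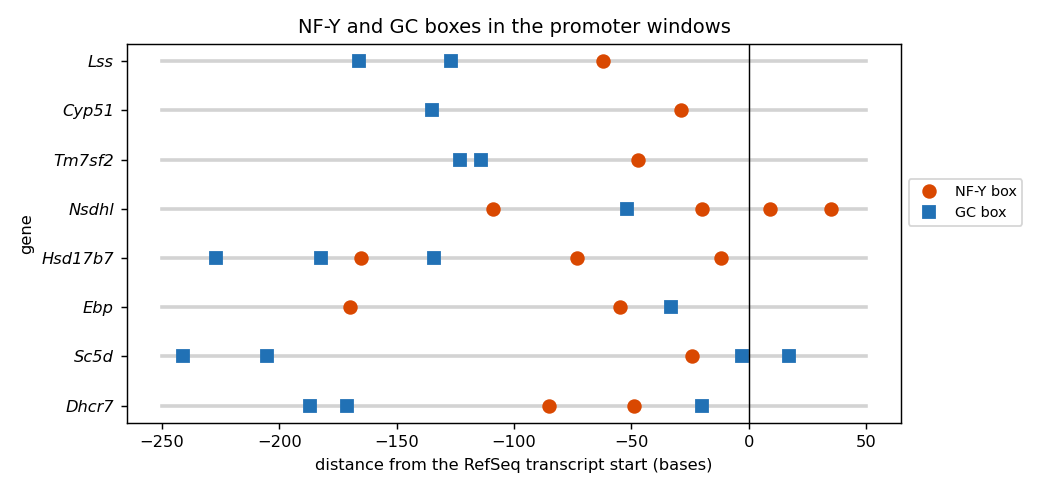
NF-Y boxes (circles) and GC boxes (squares) in the RefSeq promoter windows of 8 genes, by distance from the transcript start in bases (x axis). Each gene is shown with 1 window, for Dhcr7 the window that holds an NF-Y box. In each window shown at least 1 circle lies within 120 bases before the start.

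Levels are given as FPKM, fragments scaled to the length of the transcript and to the mapped fragments of the library, so that levels can be compared between genes. Low FPKM values rose in steps of whole reads, from which 9440000 to 12110000 fragments per library were estimated. Exact 95% intervals from these reads cover counting error only, not the difference between mice. FPKM summed to 602059 in WD+7KC and to between 696062 and 715605 in the other libraries, so rescaling to equal sums moves WD+7KC most. Hepatocyte markers were abundant in every library (6 of 6 found, sum 40991 to 48935 FPKM, led by Alb). With 7KC they were lower in 6 of 6 on WD (median log2 fold change -0.19) and in 5 of 6 on CD (-0.20). Rescaling to equal sums adds 0.22 to these values on WD, more than that fall, and 0.040 on CD. The direction of the hepatocyte median on WD therefore depends on the scaling. Sc5d was also lower with 7KC on both diets. Ebp was lower on WD, but turned to 0.069 with equal sums. Of 4 stellate cell markers, 4 (against 47.2% of genes with that mean) were higher in WD+7KC than in CD+7KC, with a median of 0.54. With 7KC, 3 of 4 were lower on CD (against 51.7%, median -0.44) and on WD (against 54.5%, median -0.18, a fall smaller than 0.22). In WD relative to CD, 2 of 4 were higher, against 49.1%. The 4 cholangiocyte markers were low, from 0.401 to 1.09 FPKM, and none reached the mean of at least 1 FPKM that the background genes have. With so few reads, 4 of 4 were lower in CD+7KC than in CD and in WD than in CD, against 51.7% and 50.7%. Of these markers, 3 were higher in WD+7KC than in WD, and 2 in WD+7KC than in CD+7KC, against 45.3% and 47.2%. The 8 macrophage and Kupffer cell markers summed to 151 and 239 FPKM on CD without and with 7KC, and 254 and 508 on WD. In each comparison made below 8 of 8 were higher, against 45.3% to 49.1% of genes with that mean. Endothelial markers summed to 41.5, 67.8, 35.9 and 98.2 FPKM in the same order, and 4 adipocyte markers summed to 182 to 314 FPKM, with Plin1 at 0 in every library, Adipoq at most 0.0885, Fabp4 at 66.5 to 143 and Cidec at 115 to 202. The part of these cells in the results was not tested, and in whole liver fewer cells of a type and less RNA per cell cannot be told apart.

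The 9 genes covered a wide range of levels, with Sc5d highest in every library and Sqle or Lss lowest. In CD and in WD the order was Sc5d, Ebp, Tm7sf2, Dhcr7, Nsdhl, Cyp51, Hsd17b7, Lss and Sqle. Nsdhl stood above Dhcr7 in CD+7KC, and Sqle stood above Lss in WD+7KC. By the ratio of neighbours, counting error did not separate Dhcr7 from Nsdhl in CD (1.09, interval 0.922 to 1.28) and CD+7KC (0.877, 0.751 to 1.02), Lss from Sqle in WD, or Hsd17b7 from Sqle in WD+7KC (1.05, 0.888 to 1.25). The summed level was 330 and 311 FPKM on CD without and with 7KC, and 334 and 293 on WD. Sc5d, Ebp and Tm7sf2 together made up 87.1% of that sum in CD and 78.2% in WD+7KC, so the sum says little about the other enzymes. The plot of levels shows the gap between Sc5d, Ebp and Tm7sf2 and the genes of lower level. Dhcr7, the last step, was among the genes of lower level, as were Sqle and Lss.

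**Figure D2:**
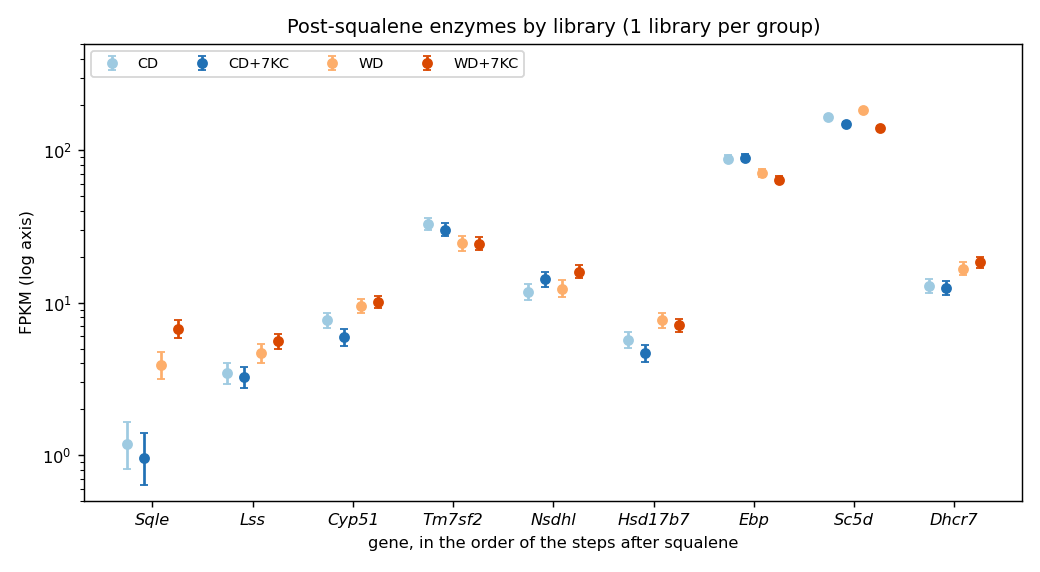
FPKM (log axis) of the 9 genes in the 4 libraries, with exact 95% counting intervals. Sqle spans the widest range, from 0.960 in CD+7KC to 6.74 in WD+7KC, while Sc5d stays between 141 and 183.

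Sqle (chr15:59315077-59331192, plus strand) encodes squalene epoxidase, a known control point of the pathway. Its level was 1.18 and 0.960 FPKM on CD without and with 7KC, and 3.90 and 6.74 on WD, from about 32.9, 26.9, 94.1 and 209 reads. Both libraries on WD lay above both on CD, and only the CD and CD+7KC intervals overlapped. The highest level was 7.02-fold the lowest, more than in any of the other 8 genes, whose range was 1.30-fold to 1.71-fold.

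Lss (chr10:76531588-76557138, plus) encodes lanosterol synthase, which makes the first sterol. Its FPKM was 3.45 and 3.26 on CD without and with 7KC, and 4.65 and 5.57 on WD. The libraries stood in the same order as for Sqle over a narrower range, with the WD libraries above the CD libraries. Its exons overlap the antisense gene 4930483K19Rik by 150 bases.

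Cyp51 (chr5:4081145-4104746, minus) encodes lanosterol 14-alpha-demethylase, a cytochrome P450 that removes the first methyl group. It measured 7.67 and 5.95 FPKM on CD without and with 7KC, and 9.56 and 10.1 on WD. CD+7KC was lowest, and the WD libraries were highest with overlapping intervals. Exons of Akap9 on the other strand cover 166 of its bases.

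Tm7sf2 (chr19:6062821-6068373, minus) encodes a sterol reductase that acts on the double bond at carbon position C14. Its level was 32.8 and 30.2 FPKM on CD without and with 7KC, and 24.5 and 24.4 on WD. Here the order was turned, with both CD libraries above both WD libraries and almost no difference within WD. Vps51 on the same strand shares 532 exon bases with it, so the authors' counting could have split reads between these genes.

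Nsdhl (chrX:72918557-72958514, plus) encodes a sterol dehydrogenase of the demethylation at position C4. Its FPKM was 11.8 and 14.3 on CD without and with 7KC, and 12.4 and 16.0 on WD. Unlike the genes before it, Nsdhl was higher in both libraries with 7KC than in both without.

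Hsd17b7 (chr1:169949535-169969241, minus) encodes the ketosteroid reductase of the same demethylation. It was listed at 5.71 and 4.65 FPKM on CD without and with 7KC, and 7.65 and 7.11 on WD. The WD libraries were above the CD libraries, and the library with 7KC was the lower on each diet, on WD not so when libraries were scaled to equal sums. Nsdhl and Hsd17b7 act in the same demethylation and did not show the same order.

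Ebp (chrX:8185329-8193512, minus) encodes the sterol isomerase that moves a ring double bond. Its level was 88.1 and 89.6 FPKM on CD without and with 7KC, and 71.2 and 64.3 on WD. As for Tm7sf2, both CD libraries were above both WD libraries.

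Sc5d (chr9:42251595-42264256, minus) encodes the sterol C5 desaturase of the late pathway. It measured 167 and 150 FPKM on CD without and with 7KC, and 183 and 141 on WD. On the deposited scaling, both libraries with 7KC lay below both without. The 4 counting intervals did not overlap, since 7528 to 8355 reads stood behind each value. The order of all 4 depends on the scaling. With libraries scaled to equal sums, Sc5d stayed lower with 7KC within each diet (log2 fold change -0.11 on CD and -0.17 on WD), but WD+7KC stood above CD+7KC (0.12).

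Dhcr7 (chr7:143823145-143848410, plus) encodes the 7-dehydrocholesterol reductase, which makes cholesterol itself. Its FPKM was 12.8 and 12.5 on CD without and with 7KC, and 16.8 and 18.4 on WD. The CD libraries were nearly level and the WD libraries lay above them. Dhcr7 has 7 RefSeq mRNAs, so its read numbers and intervals are rougher than those of the other genes, which have 1 each.

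The first comparison asked how WD and CD differed without 7KC. In WD relative to CD, Sqle was 3.31-fold higher (a log2 ratio of 1.73 with a 95% counting interval of 1.13 to 2.34), and Lss, Hsd17b7, Dhcr7 and Cyp51 were higher by smaller amounts. Tm7sf2 and Ebp were lower. Of the 9 genes, 7 were higher, against 49.1% of the 10686 genes whose mean FPKM reached 1, which serve as background throughout. The median log2 fold change, computed on FPKM + 0.1, was 0.31 for the 9 genes and -0.0059 for the background.

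The smaller differences in this comparison were near one another in size. Lss was 1.35-fold the CD level (interval 1.09 to 1.67) and Hsd17b7 was 1.34-fold (1.14 to 1.58). Dhcr7 was 1.31-fold (1.13 to 1.51) and Cyp51 1.25-fold (1.07 to 1.46). Sc5d was 1.10-fold (1.07 to 1.13). These 5 genes had intervals above 1, as Sqle did. The interval of Nsdhl, 1.05-fold (0.872 to 1.26), included 1. Tm7sf2 was 0.748 times (0.643 to 0.867) and Ebp 0.809 times (0.747 to 0.876) the CD level. Past a log2 fold change of 0.5, a ratio of about 1.41, was 1 of the 9 genes, Sqle, against 11% of the background. None was below -0.5, against 10.1%. Among the background, 65 genes had a larger log2 fold change than Sqle, which was 1.65.

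With 7KC in both diets, the differences between WD and CD were larger in value for most of these genes. On the deposited scaling, counting error did not separate this change from none for Lss, Nsdhl, Hsd17b7 and Dhcr7. As a log2 ratio, the change was 1.08 for Sqle (approximate counting interval 0.27 to 1.90) and 0.45 for Cyp51 (0.13 to 0.76). For Ebp it was -0.17 (-0.33 to -0.014), but 0.0039 with libraries scaled to equal sums. The differences of Tm7sf2 and Sc5d were smaller in value. In WD+7KC relative to CD+7KC, Sqle was 7.02-fold higher (4.67 to 10.9) and Lss and Cyp51 were each 1.71-fold and 1.70-fold higher. Of the 9 genes, 6 were higher, against 47.2% of the background. Their median log2 fold change was 0.55, against -0.024.

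Past a log2 fold change of 0.5 were 5 of the 9 genes, Sqle, Lss, Cyp51, Hsd17b7 and Dhcr7, against 13.9% of the background. None was below -0.5, against 11.2%. The interval of Lss was 1.41 to 2.09 and that of Cyp51 1.45 to 1.99. Hsd17b7 was 1.53-fold (1.29 to 1.81) and Dhcr7 1.47-fold (1.29 to 1.68). These 5 genes were also higher in WD without 7KC, as were Sc5d and Nsdhl, which did not pass 0.5 here. Ebp was 0.718 times (0.665 to 0.775), Tm7sf2 0.809 times (0.702 to 0.933) and Sc5d 0.938 times (0.908 to 0.968) the CD+7KC level. Nsdhl, at 1.12-fold (0.960 to 1.30), had an interval that included 1. For Sqle, 21 background genes had a larger log2 fold change than its 2.69, a value that was 1.98 with a pseudocount of 1. Scaled to equal sums, Sc5d turned to a log2 fold change of 0.12 with an interval above 0, and the interval of Tm7sf2 included 0. This comparison shares no library with WD relative to CD, but each of them shares libraries with those for 7KC.

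**Figure D3:**
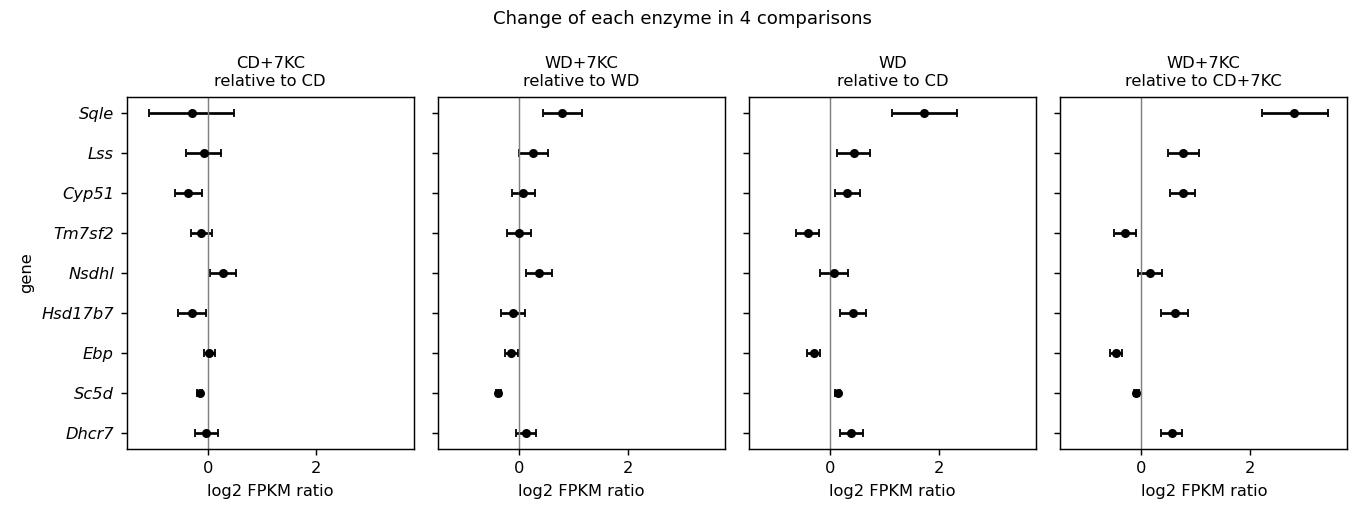
log2 FPKM ratio of each gene in the 4 comparisons, without a pseudocount, with exact 95% counting intervals; the line at 0 marks equal levels. Sqle lies farthest to the right in both comparisons of WD with CD.

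Adding 7KC to WD was accompanied by a higher Sqle and a lower Sc5d. In WD+7KC relative to WD, Sqle was 1.73-fold higher (1.35 to 2.24) and Nsdhl 1.29-fold higher (1.09 to 1.53). Sc5d was 0.766 times (0.743 to 0.791) and Ebp 0.903 times (0.830 to 0.982) the WD level. Of the 9 genes, 5 were higher, against 45.3% of the background, and the median log2 fold change was 0.079, against -0.030.

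The other 5 genes had intervals that included 1. Lss was 1.20-fold (0.997 to 1.44) and Dhcr7 1.10-fold (0.966 to 1.25) the WD level. Cyp51 was 1.06-fold (0.914 to 1.22), Tm7sf2 0.996 times (0.854 to 1.17) and Hsd17b7 0.930 times (0.798 to 1.08). These intervals hold for the deposited scaling. With libraries scaled to equal sums, those of Lss, Cyp51 and Dhcr7 lay above 1. Past a log2 fold change of 0.5 was 1 of the 9 genes, Sqle, against 8.98% of the background, and 505 background genes were above its 0.77. None was below -0.5, against 4.83%. With libraries scaled to equal sums, the background median was 0.18, the median of the 9 genes was 0.29 and 8 of 9 were higher, against 76.1% of the background. Ebp then turned to 0.069, whereas Sc5d kept its direction.

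Adding 7KC to CD went with mostly downward differences, of which 3 had intervals below 1. The median absolute log2 fold change of the 9 genes was 0.154, against 0.148 for 7KC on WD. In CD+7KC relative to CD, Cyp51 was 0.775 times (0.654 to 0.921), Hsd17b7 0.815 times (0.681 to 0.977) and Sc5d 0.899 times (0.871 to 0.927) the CD level. Nsdhl was 1.21-fold higher (1.02 to 1.43). Of the 9 genes, 7 were lower, against 51.7% of the background, and the median log2 fold change was -0.12, against -0.0048.

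The interval of Sqle was wide, 0.815 times (0.472 to 1.40), because 26.9 to 32.9 estimated reads stood behind each value. Lss was 0.945 times (0.755 to 1.18), Tm7sf2 0.921 times (0.804 to 1.05), Dhcr7 0.978 times (0.843 to 1.13) and Ebp 1.02-fold (0.946 to 1.09) the CD level, all with intervals that included 1. None of the 9 genes was past a log2 fold change of 0.5 or below -0.5, against 5.94% and 4.36% of the background. Nsdhl and Sc5d were the genes whose interval lay on the same side of 1 with 7KC on both diets, Nsdhl above and Sc5d below.

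Ratios within a library do not depend on how libraries are scaled. The Sc5d to Sqle ratio was 142 in CD (interval 100.5 to 205), 156 in CD+7KC (107 to 236), 47.0 in WD (38.4 to 58.4) and 20.8 in WD+7KC (18.2 to 24.0). Intervals of CD and CD+7KC overlapped, and those of WD and WD+7KC lay apart from them and from each other. The Ebp to Sqle ratio was 74.8, 93.3, 18.3 and 9.54 in the same order. Lss to Sqle was 2.93 and 3.40 on CD without and with 7KC, and 1.19 and 0.826 on WD. Its interval included 1 in WD (0.929 to 1.54) and lay below 1 in WD+7KC (0.689 to 0.989). Without Sqle the shift was narrower. Ebp to Cyp51 was 11.5 and 15.1 on CD without and with 7KC, and 7.46 and 6.37 on WD. Dhcr7 to Ebp, a pair of late enzymes, was 0.146, 0.140, 0.235 and 0.286.

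**Figure D4:**
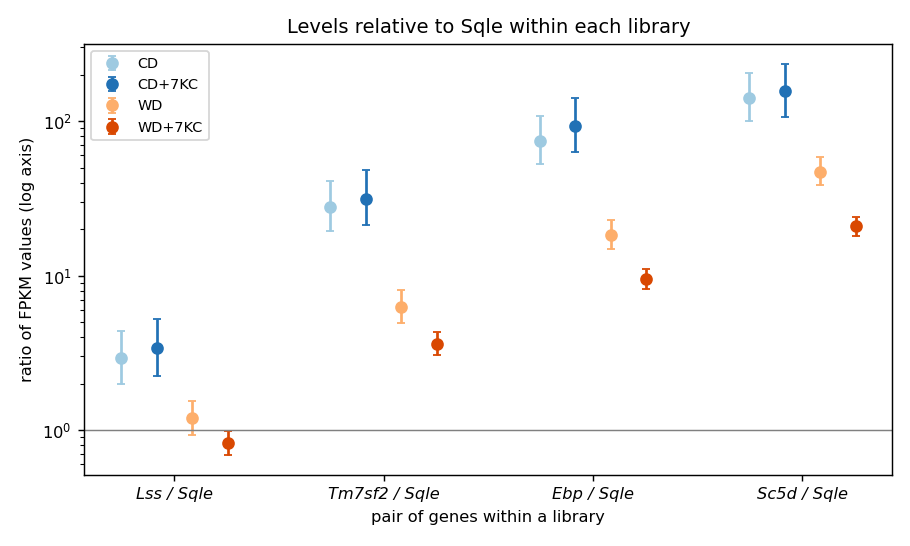
Ratio of the FPKM of Lss, Tm7sf2, Ebp and Sc5d to that of Sqle in each library (log axis), with 95% counting intervals. Each ratio is lower in WD and WD+7KC than in CD and CD+7KC, for Lss from 2.93 and 3.40 to 1.19 and 0.826.

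Msmo1 and Lbr also act after squalene and are not among the 9 genes. Msmo1, the sterol C4 methyl oxidase, was nearly flat at 24.2 and 22.1 FPKM on CD without and with 7KC, and 23.4 and 23.2 on WD. Lbr, a nuclear membrane protein with sterol reductase activity, was low, from 1.64 FPKM in WD to 2.59 in CD+7KC.

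The enzymes before squalene were set beside the 9 genes to see where along the pathway the levels differed. Of 8 enzymes from Acat2 to Fdft1, 8 were higher in WD than in CD (background 49.1%), with a median of 0.38, and 6 were higher in WD+7KC than in CD+7KC (background 47.2%), with a median of 0.26. Past 0.5 were 3 of 8 in each, against 11% and 13.9% of the background. Fdps, the synthase of farnesyl diphosphate, was at 86.7 and 81.1 FPKM on CD without and with 7KC, and 144 and 178 on WD. Its log2 fold change was 0.73 in WD relative to CD, against 1.65 for Sqle. Mvd, which makes isopentenyl diphosphate, was at 2.04, 3.20, 2.85 and 6.09. Mvk, the mevalonate kinase, was at 3.44, 4.25, 8.11 and 4.96, with its highest level in WD and not in WD+7KC. With 7KC, the median of the 8 enzymes was -0.12 on WD and 0.0025 on CD. Scaling to equal sums adds 0.22 to log2 ratios of WD+7KC to WD, so the sign of the median on WD depends on the scaling. In the plot along the pathway, Tm7sf2 and Ebp stood below 0 in both comparisons of diets, while Lss, Cyp51, Hsd17b7 and Dhcr7 stood above it.

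**Figure D5:**
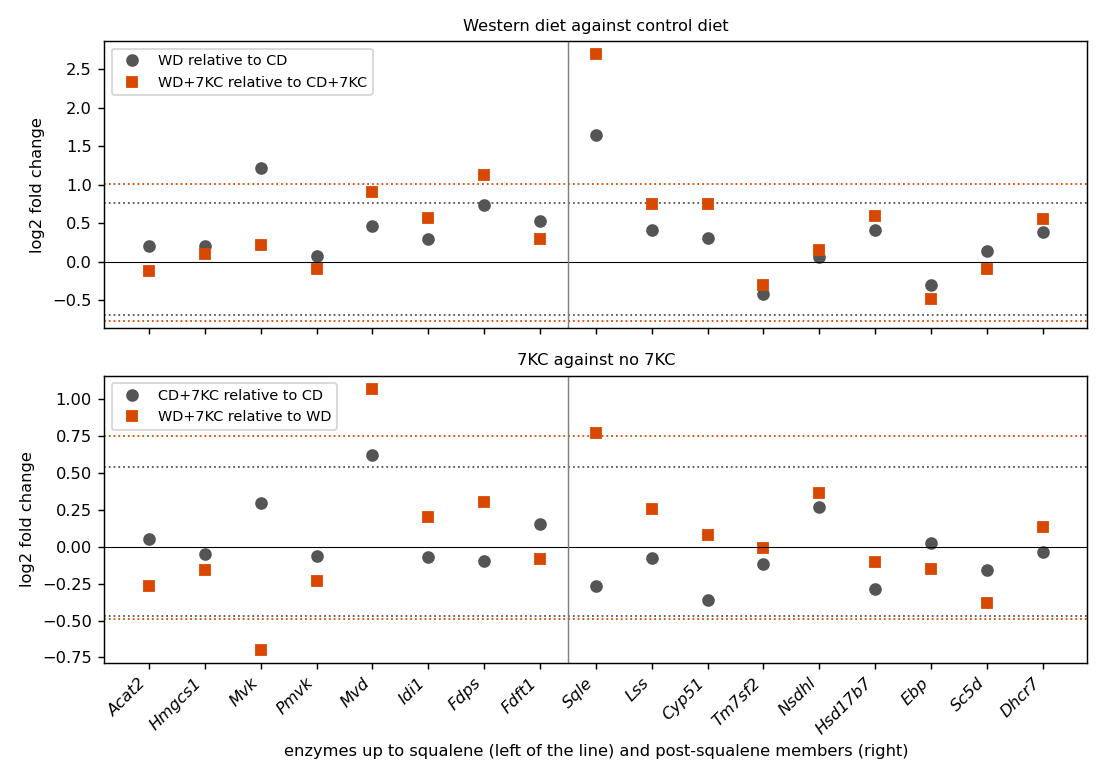
log2 fold change (FPKM + 0.1) of 8 enzymes up to squalene and the 9 genes, in pathway order, for the comparisons of WD with CD (top) and for 7KC (bottom). Dotted lines mark the 5th and 95th percentile of 10686 genes, and Sqle lies above the upper line in both comparisons of diets.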

How the data were processed

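Liver RNA of ob/ob mice was sequenced as stranded mRNA libraries, 1 per group. The authors mapped reads to mm10 (GRCm38), computed FPKM and deposited a table of gene symbols with their FPKM for each library; their processing notes name TopHat2 2.0.13, Bowtie2 2.2.3, SAMtools 0.1.19 and Cufflinks 2.2.1. The annotation, Cufflinks options and strand setting are not given in the sources used here.

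The members and gene lists were chosen with earlier results of these data known. All 9 genes were named, and others only from fixed lists of pathway genes or as the 5 genes nearest to the mean profile. The log2 fold changes used FPKM + 0.1, and background genes had a mean of at least 1 FPKM. Ratios called fold or times used no pseudocount. Depth came from steps in low FPKM values of the 11852 single-mRNA genes, taking the mRNA length minus 200 bases; 72.8% to 73.3% of low values lay within 0.1 of a whole read. Intervals are exact (Clopper-Pearson for ratios, Poisson for levels). With 1 library per group no test was run. Alternatives were a pseudocount of 1 or 0.01, no filter, a threshold of 1 and 4 scalings. Gene positions came from GENCODE M21 and promoters from RefSeq. The code was tested on simulated data. Python 3.11.15, numpy 2.4.6, pandas 2.3.3, scipy 1.17.1 and matplotlib 3.10.9 were used. Processed pseudogenes were not screened. Some genes are not reported here.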

Additional observations from a re-analysis of the deposited data

Results flagged for a closer look

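For 5 of the 9 genes the difference with 7KC had opposite signs on the 2 diets, against 46.6% of the 10686 background genes, so the count is near the background. Values are log2 ratios without a pseudocount, as the difference on WD minus that on CD, with approximate 95% counting intervals. With 1 library per group, none of these differences was tested. Sqle was lower with 7KC on CD (-0.29) and higher on WD (0.79), a difference of 1.08 (0.27 to 1.90). Cyp51 differed by 0.45 (0.13 to 0.76). Lss differed by 0.34 (-0.065 to 0.75) and Dhcr7 by 0.17 (-0.11 to 0.45), with intervals that included 0. Ebp was slightly higher with 7KC on CD and lower on WD, a difference of -0.17 (-0.33 to -0.014). With libraries scaled to equal sums, Ebp was higher on both diets (0.065 and 0.069) and Dhcr7 too (0.0075 and 0.35), whereas Sqle, Lss and Cyp51 kept opposite signs, with a difference of 1.26 for Sqle. Tm7sf2 and Hsd17b7 then had opposite signs as well.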

How the results depend on the processing

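No paired analysis was possible because each group has 1 library. Of 80 recomputed medians and counts, 74 were unchanged counts or medians that stayed inside the counting interval of their middle gene. That rule is loose for medians. Without the 20 most abundant genes in the sums, the median went from 0.079 to 0.25 in WD+7KC relative to WD and from 0.55 to 0.74 in WD+7KC relative to CD+7KC, and both are among the 74. Of 216 recomputed values of single genes, 202 stayed inside their counting interval and 10 left it without changing sign. Among the 202, 7 changed sign by scaling alone, in genes whose interval included 0 (Dhcr7 in CD+7KC relative to CD, and Tm7sf2 and Hsd17b7 in WD+7KC relative to WD). Scaling to equal sums (TPM) raised the median of the 9 genes to 0.29 in WD+7KC relative to WD and to 0.76 in WD+7KC relative to CD+7KC, as WD+7KC has the smallest sum. In WD+7KC relative to WD, 2 genes passed 0.5 with TPM, 2 when the 20 most abundant genes were left out of the sums, and 0 passed a threshold of 1. In WD+7KC relative to CD+7KC, 1 gene passed a threshold of 1. Ebp in WD+7KC relative to WD turned to 0.069 with TPM and 0.027 without the 20 genes, and Sc5d in WD+7KC relative to CD+7KC to 0.12 and 0.10. With TPM, 17.0% of background genes were above 0.5 and 1.72% below -0.5 in WD+7KC relative to WD, and 22.8% and 6.01% in WD+7KC relative to CD+7KC, whose background median became 0.18. Without the filter on low values, the shares past 0.5 and below -0.5 were 12.7% and 8.92% in CD+7KC relative to CD and 16.5% and 8.93% in WD+7KC relative to WD. In WD relative to CD, 6 genes had intervals above 0 and 2 below under every scaling. With TPM this split went from 2 above and 2 below to 5 and 1 in WD+7KC relative to WD, and from 5 and 3 to 7 and 1 in WD+7KC relative to CD+7KC. The interval of Hsd17b7 for 7KC on CD included 0 with TPM and upper-quartile scaling. Sqle in WD+7KC relative to CD+7KC was 1.98 with a pseudocount of 1. Depth limited Sqle most, with 26.9 estimated reads in CD+7KC.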

Other observations

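The genes that control SREBP2 differed in their order over the libraries. Srebf2, which encodes SREBP2, was higher in both WD libraries, as Sqle was, and stood at 5.84 and 5.46 FPKM on CD without and with 7KC, and 7.32 and 6.95 on WD. Insig1 was nearly flat, at 68.0, 67.1, 71.2 and 70.8 FPKM. Insig2, whose product also holds the SREBP escort protein SCAP in the endoplasmic reticulum, was lower in both WD libraries, at 245, 218, 152 and 126 FPKM. Its log2 fold change was -0.69 in WD relative to CD and -0.79 in WD+7KC relative to CD+7KC.

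Of 10677 other genes, those nearest to the mean profile of the 9 genes were Add1, Naglu, Zmat3, Gtf2f1 and Noc4l, by the root-mean-square distance of centred log2(FPKM + 0.1) values over 4 libraries. The distance was 0.00964 for Add1 and 0.0200 for Noc4l, against 0.21 for a flat profile. Add1 was at 12.3 and 11.4 FPKM on CD without and with 7KC, and 14.9 and 16.3 on WD. With 4 libraries such nearness is common, as 438 genes lay within 0.1, and 25 lay nearer than Dhcr7, the nearest of the 9 genes. Sqle, with the widest range, weighs most in this mean, whereas Tm7sf2 and Ebp were lower in both WD libraries. Nearness to the mean is therefore not likeness to each of the 9 genes.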
